A study of Homo sapiens with 10 samples.

Results

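Homologous recombination repairs a broken chromosome by copying the intact sister, and the Fanconi pathway hands DNA crosslinks to the same machinery. Break sensors recruit kinases and adaptors, nucleases resect the ends, and BRCA complexes prepare the resected ends for strand exchange with the sister. In the Fanconi pathway a ubiquitin ligase complex marks the FANCD2 and FANCI pair. Many of these genes are long and are transcribed mainly in S and G2 phase, and the kinase CDK12 is known to sustain their full-length transcription. A named list of 44 such genes was taken by gene symbol, and 43 of them had at least 1 listed intron, among 10801 genes with a listed intron of their own. They are described here in A549 cells, an established line from a lung adenocarcinoma, in which drugs that act on RNA polymerase II (Pol II) were applied.

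The 5 groups of 2 libraries each were A549 cells given the vehicle DMSO, DRB at 10 or 25 μg/mL, or α-amanitin at 1 or 2 μg/mL. All cells were the same unmodified line, so each group is 1 line in culture. α-Amanitin binds Pol II and slows it, and was applied for 24 h. DRB inhibits kinases that release paused Pol II; its exposure time and that of DMSO are not given in the sources used here. Poly(A)+ RNA was sequenced, and each file lists introns with their split reads, which span the spliced junction, and exons with reads for inclusion and exclusion.

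The libraries held between 2899344 and 6498515 split reads. The lowest sum listed for an intron was 11 reads over all its classes, so an unlisted intron can hide up to 10 reads. It can hide more where the authors' filter on the spread of read positions (offset entropy) removed it. A gene with no listed intron is therefore not shown to be silent. Of 64205 introns listed in both DMSO libraries, 51% and 65.2% were still listed in the libraries at 25 μg/mL of DRB, against 90.7% to 98.2% in the other treated libraries. Of 7 epithelial markers 3 were listed in every library and KRT19 and CDH1 in none; all 4 endothelial markers, 3 of 4 fibroblast markers and 3 of 5 blood markers were listed in none. The summed level ranged over the libraries from 1786 to 5291 CPM (TMM-scaled split reads per 1000000) for the epithelial list, from 0 to 155 for the fibroblast list and from 0 to 24.4 for the blood list.

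At 25 μg/mL of DRB most introns of the 44 genes dropped out of the list. The genes had 382 introns listed in both DMSO libraries, and 26 and 66 of these, or 6.81% and 17.3%, were listed in the libraries at 25 μg/mL. At 10 μg/mL of DRB 336 and 361 of the 382 were listed. Of 34 genes with such introns, 20 had none of them listed in either library at 25 μg/mL, and 18 genes with split reads in both DMSO libraries had no split read listed at all. The loss was seen at matched read numbers. Among introns with a mean of 30 to 50 reads in DMSO, 13 and 30 of the genes' 67 introns were listed, or 19.4% and 44.8%, against 57.9% and 76% of 12584 such introns of all genes. Among introns with 20 to 30 reads in DMSO the shares were 1.68% and 9.24% for the genes, against 37.8% and 56.2% for all genes. Introns share a gene and a library, so these shares are a description and were not tested.

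**Figure D1:**
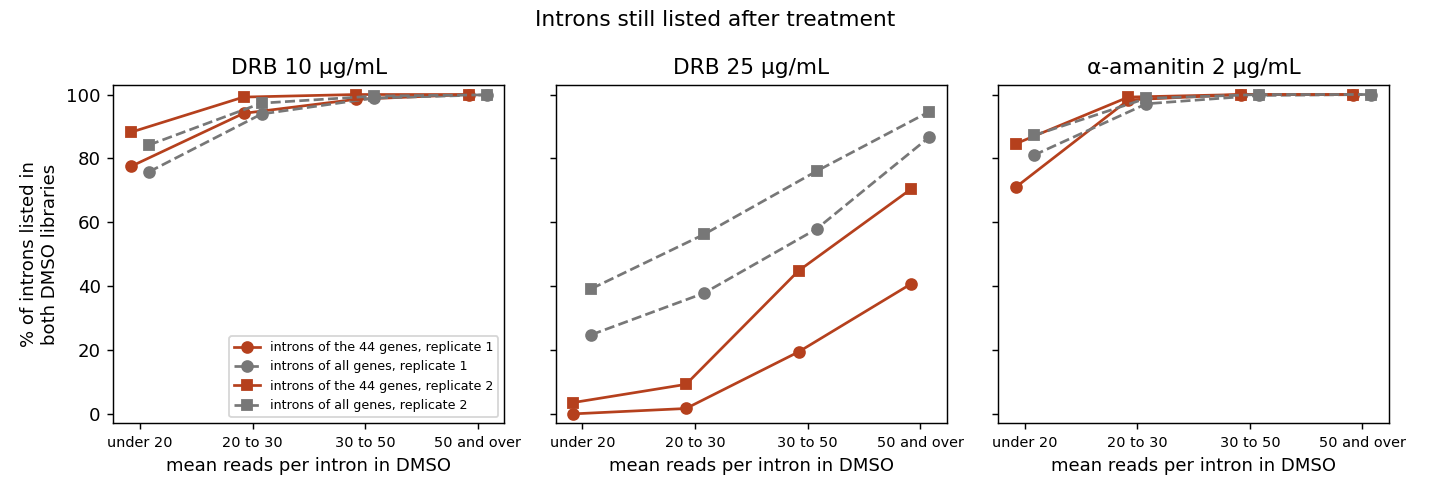
Percentage of introns listed in both DMSO libraries that were still listed after treatment (y axis), by their mean number of split reads in DMSO (x axis), for introns of the 44 genes (solid) and of all genes (dashed) in each replicate library. The lines lie close at 10 μg/mL of DRB, and at 2 μg/mL of α-amanitin they part under 20 reads, with 71% of the genes' introns against 81% of all introns in replicate 1. At 25 μg/mL of DRB the genes' lines lie below those of all genes, with 19.4% and 44.8% against 57.9% and 76% at 30 to 50 reads.

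Levels are given in CPM after TMM scaling and were tested with limma-voom across all genes at an adjusted p (Benjamini-Hochberg) of 0.05. Such levels are relative within a library, so a fall of RNA shared by all genes would not be seen. After scaling the median log2 fold change of all genes was 0.03 at 10 μg/mL of DRB. At 25 μg/mL it was -0.99, so the bulk of genes was not matched there. At 25 μg/mL of DRB 31 of 39 tested genes were lower than in DMSO and 0 were higher, against 61.2% called among 9475 genes, of which 3852, or 40.7%, were lower and 1947 higher. The median log2 fold change was -5.94 for the 39 genes and -0.99 for all genes tested. BRCA1, the ubiquitin ligase subunit that promotes resection and strand exchange, had 0 and 0 listed split reads at 25 μg/mL of DRB, against 398 and 465 in DMSO (limma, adjusted p = 0.000537). RAD54L, a motor protein of strand exchange, had 0 and 0 against 287 and 296, and NBN, a subunit of the break sensor, had 0 and 0 against 284 and 300. MUS81 had 0 and 0 against 286 and 392, and DNA2 had 0 and 0 against 311 and 260; both encode nucleases. In none of these genes did the groups overlap. Of all genes with at least 8 CPM in both DMSO libraries, 57.9% lay below both at this dose.

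The fitted fold changes of such genes overstate what is known, because unlisted introns were read as 0. A limit was therefore computed in which each intron listed in both DMSO libraries, but not in a treated one, was given 10 reads. It was chosen after seeing the data. Reads removed by the entropy filter are not covered, so the fold limits below hold only apart from these. Under the limit 9 of 34 genes were still lower at 25 μg/mL of DRB and 0 were higher (limma), against 43% of 8073 genes called and 19.1% called lower, so the count stood little above the background. The 9 were UBE2T, RAD50, CHEK1, RBBP8, FANCG, FANCI, TOPBP1, MUS81 and TP53BP1. Of the 34 genes, 11 lay below both DMSO libraries in each library at 25 μg/mL under the limit. Filled counts do not vary between libraries, so calls under the limit rest in part on the filling and are a description. MUS81 had 0 and 0 listed reads and a filled 130 in each library, so its call rests on the filling alone. UBE2T, the ubiquitin-conjugating enzyme of the Fanconi pathway, was at least 3.32-fold lower, with 0 and 15 split reads listed on 6 introns at 25 μg/mL of DRB, against 296 and 362 in DMSO. RAD50, the arm of the break sensor, was at least 2.01-fold lower, with 0 and 64 reads listed on 23 introns against 779 and 830. CHEK1, the checkpoint kinase downstream of ATR, was at least 1.74-fold lower, with 0 and 30 reads on 11 introns against 303 and 351. RBBP8 (CtIP), which starts resection, and FANCG, of the Fanconi core complex, were at least 1.66-fold and 1.65-fold lower. For BRCA1 the limit is 1.3-fold, since 180 reads could be unlisted on its 18 introns, and it did not pass the test under the limit.

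**Figure D2:**
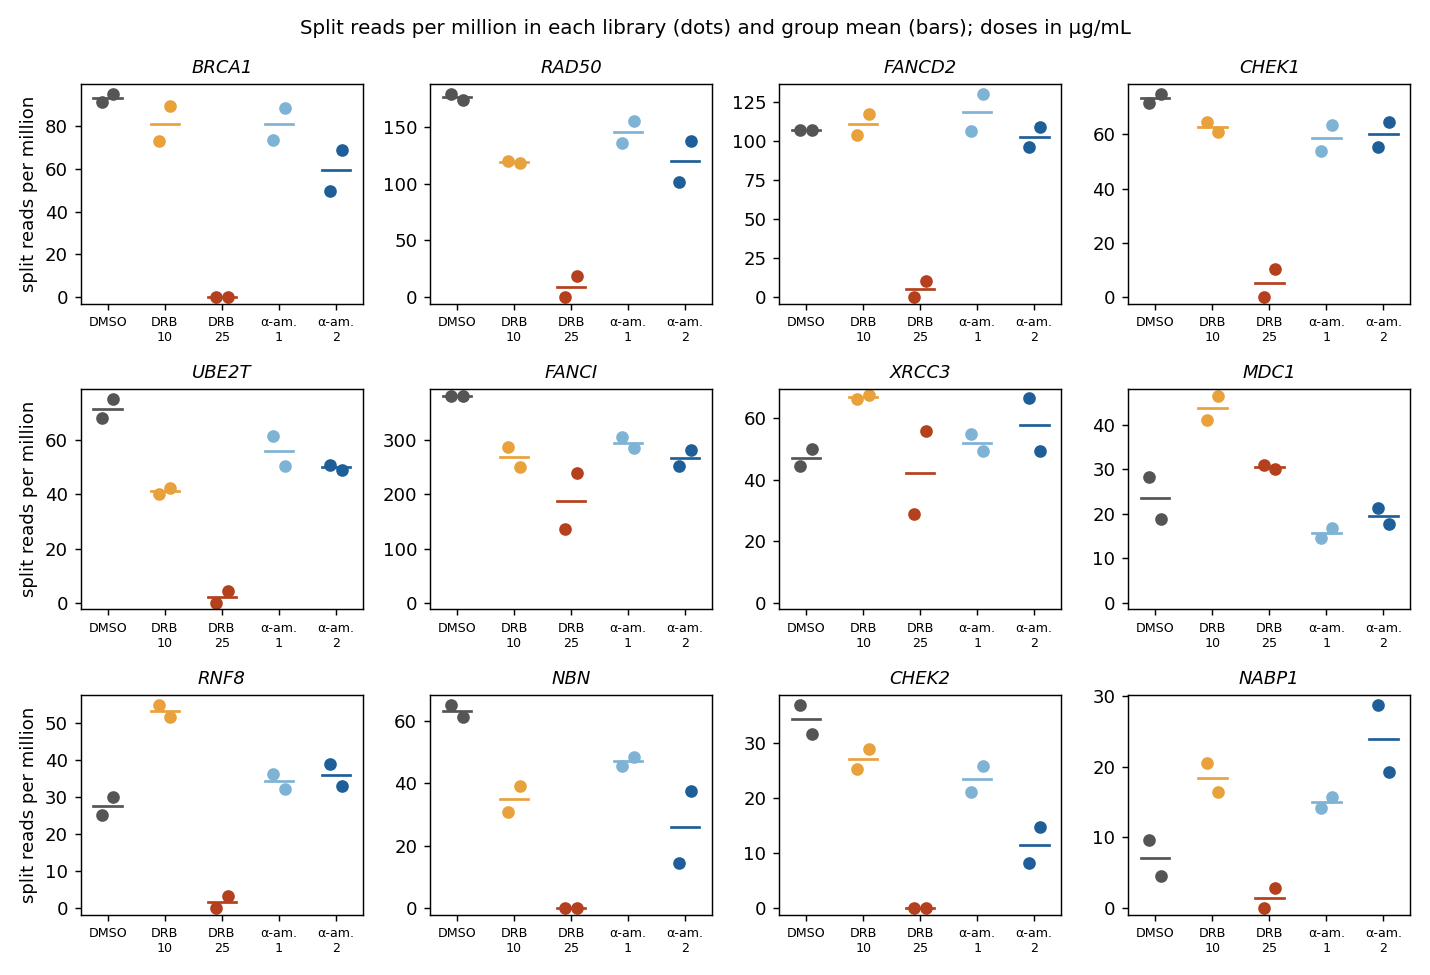
Level in CPM (y axis) of 12 genes in each library (dots) with the group mean (bars), for DMSO, DRB at 10 and 25 μg/mL and α-amanitin at 1 and 2 μg/mL (x axis). A dot at 0 means that no intron of the gene was listed; at 25 μg/mL of DRB this holds for both libraries of BRCA1, NBN and CHEK2, while FANCI, XRCC3 and MDC1 kept reads in both.

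Of the 44 genes 5 had split reads listed in both libraries at 25 μg/mL of DRB: FANCI, XRCC3, MDC1, and with at most 25 reads ATR and TP53BP1. FANCI, the partner of FANCD2 and the most covered of the 44 apart from UBE2T at 47.2 reads per intron in DMSO, had 1662 and 1870 split reads in DMSO, compared with 1260 and 1407 at 10 μg/mL, then 304 and 832 at 25 μg/mL. It fell by 1.02 ± 0.24 (SE) on the log2 scale at 25 μg/mL (limma, adjusted p = 0.0142), with 137 and 239 CPM against 381 and 382 in DMSO. XRCC3, which acts in strand exchange, had 64 and 195 split reads against 194 and 245, and its log2 fold change of -0.10 ± 0.32 did not pass the test. MDC1, the scaffold that binds phosphorylated H2AX at breaks, had 69 and 105 against 123 and 92, which is 31 and 30.1 CPM against 28.2 and 18.8 CPM (log2 fold change 0.43 ± 0.35, limma, adjusted p = 0.329). FANCI kept 20 and 32 of its 37 introns and XRCC3 kept 3 and 7 of its 7. UBE2T, with 54.8 reads per intron in DMSO, kept 0 and 2 of 6.

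The calls at 25 μg/mL of DRB depended on having both libraries: fewer genes were called without either of them, and fewer of all genes too. The median log2 fold change of the 39 genes was -4.37 without its replicate 1 and -6.82 without its replicate 2. Over all genes it was -0.65 and -1.32. Without DMSO replicate 1 or 2 it was -6.03 and -5.98 for the 39 genes, against -0.89 and -0.83 over all genes. With DMSO and 25 μg/mL alone in the fit 32 of 35 genes were lower, against 59.7% of genes called. Over introns listed in every library 4 genes could be tested, and FANCI and TP53BP1 were lower, against 61.9% of 4725 genes (60.1% with DMSO and 25 μg/mL alone); MDC1 and XRCC3 were not called there. Between the doses 34 of 39 genes were lower at 25 than at 10 μg/mL of DRB and 0 higher, against 63.1% of 9475 genes called and 43.2% called lower. Fewer genes were called without replicate 1 or 2 at 25 μg/mL, and fewer of all genes too. FANCI, MDC1 and XRCC3 were not called between the doses, nor were RAD54B and RNF168, whose reads were few. Introns that RAD54B shares with an overlapping gene were left out. Both comparisons share the libraries at 25 μg/mL.

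At 10 μg/mL of DRB the genes moved in both directions and little passed the test. NBN fell by 0.83 ± 0.20 (SE) on the log2 scale (limma, adjusted p = 0.0466) and was the single call among 39 genes tested, against 14.8% of 9475 genes called. It had 30.8 and 39.2 CPM at 10 μg/mL, against 65.2 and 61.2 in DMSO. The call was lost without any 1 of the 4 libraries, as were the calls of all other genes, so this is not particular to NBN. With scaling to total split reads NBN was not called (adjusted p = 0.0636 in limma) and MDC1 was called higher instead. When the libraries at 25 μg/mL were left out of the fit, 7 genes were lower and 4 higher, against 22.5% of 9208 genes called. The lower genes were BRIP1, FANCI, NBN, RAD50, TOPBP1, TP53BP1 and UBE2T, with log2 fold changes from -1.34 to -0.51, and the higher ones were EME1, MDC1, RNF8 and XRCC3, from 0.49 to 1.29. Over introns listed in all 4 libraries the same 11 were called with FANCG in place of BRIP1, against 33.9% of 7469 genes.

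The 4 higher genes are described by their values. RNF8, the ubiquitin ligase that MDC1 recruits to breaks, had 55 and 51.7 CPM at 10 μg/mL of DRB, against 25.2 and 30.2 in DMSO. MDC1 had 41.1 and 46.4 against 28.2 and 18.8, and EME1, the partner of MUS81, had 31.3 and 26.2 against 16.1 and 8.6. XRCC3 had 66.2 and 67.6 against 44.5 and 50. The groups did not overlap in any of the 4. UBE2T had 39.9 and 42.4 against 67.9 and 74.9, and TP53BP1 (53BP1), which protects ends from resection, had 79.7 and 78.6 against 145 and 109. BRIP1, the helicase partner of BRCA1, had 9.4 and 10.3 against 27.5 and 23.3. Of 31 genes with at least 8 CPM in both DMSO libraries, 9 lay above and 15 below both DMSO libraries at 10 μg/mL, against 31.8% above and 40.2% below among 6855 such genes.

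**Figure D3:**
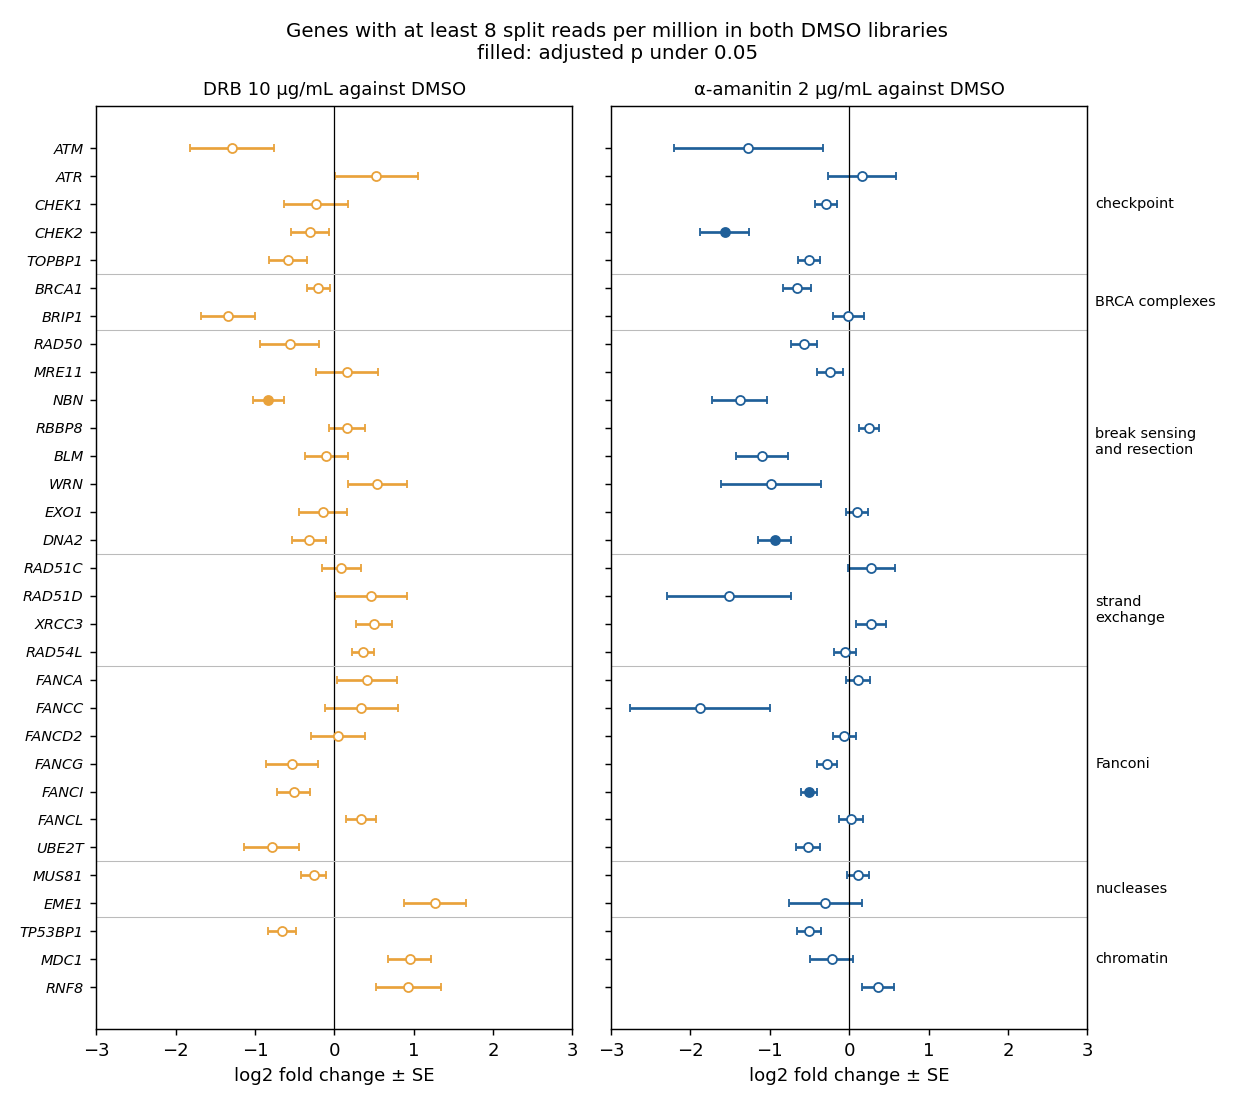
Log2 fold change against DMSO with its SE (x axis) for the 31 genes with at least 8 CPM in both DMSO libraries (y axis, grouped by role), at 10 μg/mL of DRB (left) and 2 μg/mL of α-amanitin (right). Filled points passed an adjusted p of 0.05, and these are NBN under DRB and CHEK2, DNA2 and FANCI under α-amanitin.

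With α-amanitin few genes were called, on the list and over all genes. At 1 μg/mL 0 of 42 genes were called, and 4 had an unadjusted p under 0.05 in limma; 0% of all 9627 genes were called. Over introns listed in all 4 libraries of DMSO and 1 μg/mL 0 of 30 genes were called, against 0.0522%. At 2 μg/mL CHEK2, DNA2 and FANCI were lower and 0 genes higher, against 6.34% of 9627 genes called and 3.98% called lower. CHEK2, the checkpoint kinase activated by ATM, had 8.3 and 14.8 CPM at 2 μg/mL of α-amanitin, against 36.9 and 31.6 in DMSO (log2 fold change -1.57 ± 0.31, limma, adjusted p = 0.0373). CHEK2 has pseudogene copies, so its reads could be split among them and its level is uncertain. DNA2 had 33.9 and 30 against 71.4 and 53.1, and FANCI had 253 and 282 against 381 and 382. FANCI fell by 0.51 and DNA2 by 0.94 on the log2 scale. Of introns listed in both DMSO libraries, CHEK2 kept 3 and 6 of 9 at 2 μg/mL and DNA2 kept 8 and 8 of 12. FANCI kept 36 and 36 of 37. The others were read as 0, so the falls of CHEK2 and DNA2 may be overstated.

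These 3 calls depended on the setting: 6 of 30 genes were called lower over introns listed in every library, against 17% of 7429 genes. With DMSO and 2 μg/mL alone in the fit 0 were called, against 0% of 9277 genes. In fits without 1 library the calls were lost or fewer, for these genes and over all genes. Under the limit of 10 reads per unlisted intron 11 of 34 genes were lower, in part on filled counts, against 19.9% of 8071 genes called and 14.7% called lower. These included BRCA1, BLM, NBN, RAD50, RAD51D, TOPBP1, TP53BP1 and UBE2T beside the 3 above. BRCA1 had 91.3 and 94.9 CPM in DMSO, compared with 73.4 and 88.4 at 1 μg/mL, then 49.8 and 68.6 at 2 μg/mL, and the difference at 2 μg/mL did not pass the main test (limma, adjusted p = 0.0727). Of the 31 genes with at least 8 CPM in both DMSO libraries, 2 lay above and 16 below both DMSO libraries at 2 μg/mL, against 27.9% above and 35% below among all such genes. No gene was called between 2 and 1 μg/mL, and 5 of 42 had an unadjusted p under 0.05 in limma; 0% of all genes were called.

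NABP1, which encodes a single-stranded DNA-binding protein of the SOSS complex, had more reads in the 6 libraries with either dose of α-amanitin or the lower dose of DRB than in DMSO. It had 42 and 22 split reads in DMSO, 67 and 110 at 1 μg/mL of α-amanitin and 162 and 122 at 2 μg/mL, while it had 90 and 92 at 10 μg/mL of DRB. In CPM it had 9.6 and 4.5 in DMSO, and none of the 6 overlapped DMSO. Among genes with at least 8 CPM in both DMSO libraries, 31.8% lay above both at 10 μg/mL of DRB. With α-amanitin the share was 18.1% at 1 μg/mL and 27.9% at 2 μg/mL. NABP1 is not among these genes, and each share is for a single condition, so they are no matched background for it. Only 2 introns of NABP1 were listed in both DMSO libraries, at a mean of 10.5 reads. Its unlisted introns were read as 0, so the difference may be overstated. The log2 fold changes were 1.23 ± 0.59 and 1.86 ± 0.57 with α-amanitin and 1.44 ± 0.74 with DRB, and none passed the test (limma, adjusted p = 0.533, 0.0958 and 0.245). At 25 μg/mL of DRB it had 0 and 10 reads. All 4 comparisons share the DMSO libraries.

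Set directly against each other, 10 μg/mL of DRB and 2 μg/mL of α-amanitin differed in 5 of 42 genes, against 20.8% of 10046 genes. CHEK2, EME1, MDC1 and RAD51D were higher with DRB, and BRIP1 was lower. Unlisted introns were read as 0 and no limit was computed here, so these differences may be overstated. Of 4 BRIP1 introns listed in both DMSO libraries, 1 and 2 were listed with DRB and 3 and 4 with α-amanitin. CHEK2 had 6 and 9 of 9 with DRB against 3 and 6, and RAD51D 3 and 2 of 3 against 1 and 2. MDC1 had 41.1 and 46.4 CPM with DRB, against 21.4 and 17.8 with α-amanitin (log2 fold change 1.17 ± 0.24, limma, adjusted p = 0.0118). BRIP1 had 9.4 and 10.3 against 25.2 and 24.8 (-1.33 ± 0.27, adjusted p = 0.012 in limma). In fits without 1 library fewer genes were called, and fewer of all genes too.

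By role, the checkpoint kinases and adaptors were lower at 25 μg/mL of DRB in 5 of 6 tested genes and the resection and break-sensing genes in 8 of 8. The BRCA complexes were lower in 4 of 4 tested, the Fanconi core and ID genes in 7 of 8, the structure-specific nucleases in 2 of 2, the strand exchange and single-stranded DNA binding group in 3 of 6, and the chromatin response group in 2 of 5. Under the limit of 10 reads per unlisted intron the lower genes were 2 of 5 for the checkpoint, 2 of 8 for resection, 0 of 3 for the BRCA complexes, 3 of 7 for the Fanconi genes, 1 of 2 for the nucleases, 0 of 6 for strand exchange and 1 of 3 for the chromatin response. Over all genes 40.7% were called lower at 25 μg/mL of DRB, and 19.1% under the limit. The groups hold few genes, and a difference between roles was not tested. At 10 μg/mL the only call was in the resection group, against 6.63% of all genes called lower. At 2 μg/mL of α-amanitin there was 1 call each among the checkpoint, resection and Fanconi genes, against 3.98% of all genes called lower. FANCD2, the ubiquitylated partner of FANCI, had 0 and 37 split reads at 25 μg/mL of DRB against 466 and 525 in DMSO, and 96.1 and 109 CPM at 2 μg/mL of α-amanitin against 107 and 107. It has a pseudogene copy, so its level is uncertain too.

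Several of the genes were too sparse for a statement. ATM, the kinase activated by breaks, had 48 and 48 split reads in DMSO, 12 and 35 at 10 μg/mL of DRB, 0 and 0 at 25 μg/mL, then 12 and 99 at 1 μg/mL of α-amanitin and 58 and 13 at 2 μg/mL. It was called lower at 25 μg/mL (limma, adjusted p = 0.00199), but 1 intron of ATM was listed in both DMSO libraries, and under the limit its log2 fold change was 0.52 and did not pass the test. BRCA2, which acts on resected ends, had 14 and 0 reads in DMSO, none listed with DRB, 0 and 94 at 1 μg/mL of α-amanitin and 25 and 35 at 2 μg/mL. FANCB was listed nowhere, and SLX4 had 7 reads in 1 library. XRCC2, FANCM, FANCE, BARD1, ATRIP, RNF168, POLQ and RAD54B had at most 57 reads in any library. FANCB, SLX4, BRCA2, XRCC2 and FANCM were not tested with DRB, and FANCB and SLX4 not with α-amanitin. The remaining genes had between 22 and 851 reads in every DMSO library, FANCI apart.

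Other gene lists moved in the same libraries. Of 43 tested further homologous recombination and Fanconi genes, 0 were lower and 3 higher at 10 μg/mL of DRB and 25 lower and 2 higher at 25 μg/mL, and of 44 tested with α-amanitin 3 were lower and 1 higher at 2 μg/mL. Of 35 genes of end joining, mismatch and base excision repair, 21 were lower and 3 higher at 25 μg/mL. The introns of these 2 lists that both DMSO libraries listed stayed listed at 25 μg/mL in 29.9% and 38.3%, and in 43.5% and 54.2%, against 6.81% and 17.3% for the 44 genes. These shares depend on the reads per intron and were not matched for them, so the lists cannot be ranked by them. Over all genes 40.7% were called lower and 20.5% higher at 25 μg/mL, 6.63% lower and 8.18% higher at 10 μg/mL, and 3.98% lower and 2.36% higher at 2 μg/mL of α-amanitin. Under the limit of 10 reads per unlisted intron the further recombination genes had 8 lower and 5 higher of 40 at 25 μg/mL of DRB, with a median log2 fold change of 0, and the other repair genes 8 lower and 3 higher of 31. CDK12 and its relative CDK13 had no listed reads at 25 μg/mL of DRB, while CCNK, the cyclin of both, had 46.4 and 44.5 CPM in DMSO, compared with 130 and 128 at 10 μg/mL, then 373 and 279 at 25 μg/mL. Of these 3 genes 1 was higher and 2 lower at 25 μg/mL, and under the limit 1 was higher and 0 lower.

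Cell cycle markers fell beside the repair genes. Of 20 markers 6 were lower at 10 μg/mL of DRB, 17 lower and 2 higher at 25 μg/mL, 0 lower at 1 μg/mL of α-amanitin and 8 at 2 μg/mL. Under the limit 17 were still lower and 2 higher at 25 μg/mL of DRB. Their summed level was 6652 and 7156 CPM in DMSO, 4833 and 4880 at 10 μg/mL of DRB, 2554 and 3234 at 25 μg/mL, then 5749 and 6067 at 1 μg/mL of α-amanitin and 4722 and 5280 at 2 μg/mL. In bulk RNA fewer cycling cells and less RNA per cell cannot be told apart, and the part of the cell cycle in the falls above was not tested. Markers differed among themselves: TYMS had 550 and 633 CPM at 25 μg/mL against 336 and 377 in DMSO, and TOP2A had 80 and 163 against 1299 and 1470.

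The 44 genes were longer than others, with a median length of 64.6 kb against 33.3 kb for the genes tested with DRB, and ranged from 6.2 kb (FANCG) to 328 kb (FANCC). Spearman's rho across genes was -0.21 at 10 μg/mL and -0.16 at 25 μg/mL of DRB (33 genes), against 0.02 and -0.23 over all genes, and -0.14 at 2 μg/mL of α-amanitin (36 genes), against -0.08. Under the limit (34 genes) it was -0.17 at 10 and 0.13 at 25 μg/mL of DRB, against -0.03 and -0.08, and -0.27 at 2 μg/mL of α-amanitin, against -0.18. Genes share libraries and are not replicates, so no p is given.

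To ask whether reads were lost along a gene, split reads of late introns, centred past the midpoint of the gene, were set against those of early introns before it. None of 24 genes tested with DRB or 25 with α-amanitin was called, against 0.142% of 4915 genes at 25 μg/mL of DRB and 0% in the other 3 comparisons. Unlisted introns were read as 0 here. At 25 μg/mL of DRB BRCA1, NBN, RAD54L, DNA2 and MUS81, among others, had 0 early and 0 late reads in both libraries. For such genes the log2 ratio is fixed at 0, so the test cannot show a loss along them. Over introns listed in every library of the fit 2 genes could be tested with DRB and 19 with α-amanitin, and none was called, against 0.222% at 10 and 2.48% at 25 μg/mL of DRB and 0.0222% at 1 and 0.133% at 2 μg/mL of α-amanitin. With DRB 5 genes had an unadjusted p under 0.05 in limma at 10 μg/mL and 4 at 25 μg/mL. BRIP1 gave the largest ratio at 10 μg/mL, with 28 and 40 late against 13 and 18 early reads, while DMSO had 36 and 45 late against 84 and 69 early reads. Its log2 ratio was higher by 2.01 ± 0.38 (limma, adjusted p = 0.28), and by 1.03 with early and late introns taken by rank (adjusted p = 0.528). Of its 4 introns listed in both DMSO libraries, 1 and 2 were listed at 10 μg/mL. The others were read as 0, so this ratio is uncertain. FANCA, of the Fanconi core complex, had 318 and 338 late against 314 and 372 early reads at 10 μg/mL, while DMSO had 164 and 203 late against 255 and 315 early reads. It did not pass the test either (limma, adjusted p = 0.494).

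FANCI could be followed along its 73.3 kb at 25 μg/mL of DRB. Relative to the DMSO mean its plotted introns varied without a steady order in the libraries at 25 μg/mL. The first, at 9.27 kb from the gene's start, stood at 0.77 and 1.26, the one at 20.33 kb at 0.68 and 0.47, the one at 66.34 kb at 1.1 and 0.87, and the last at 0.45 and 0.39. Its first 5 plotted introns held 280 and 321 split reads in DMSO, compared with 200 and 230 at 10 μg/mL, then 61 and 198 at 25 μg/mL. The last 5 held 228 and 256 in DMSO, compared with 162 and 187 at 10 μg/mL, then 56 and 94 at 25 μg/mL. The late against early difference was -0.25 ± 0.15 on the log2 scale and did not pass the test (limma, adjusted p = 0.569), and it was 0.11 over introns listed in every library.

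**Figure D4:**
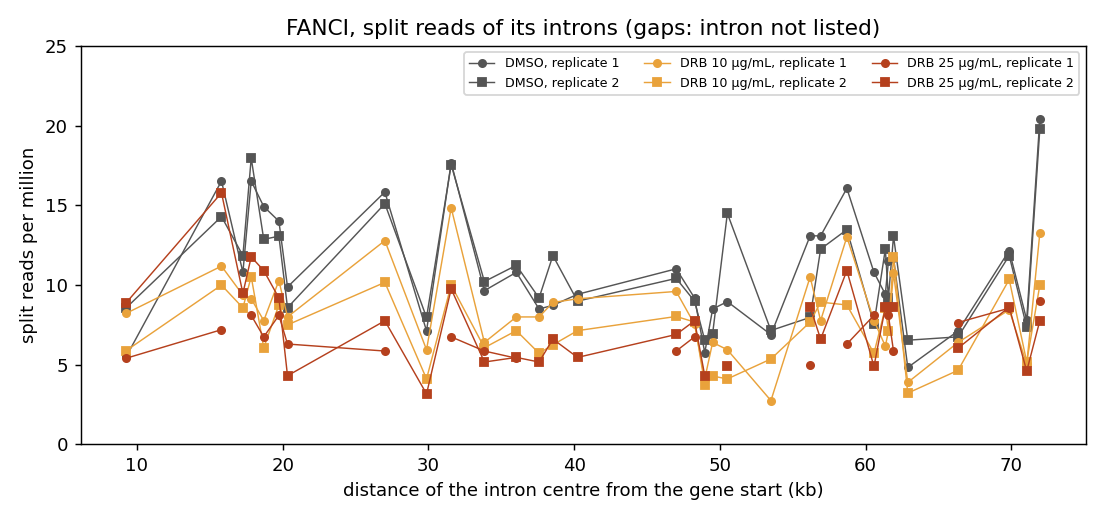
Level in CPM (y axis) of 33 introns of FANCI by the distance of the intron's centre from the gene's start in kb (x axis), in each DMSO and DRB library. At 25 μg/mL of DRB the replicate 2 library reached the DMSO level on the first introns, at 1.26 times the DMSO mean, and lay at 0.47 times it at 20.33 kb, at 0.87 times it at 66.34 kb and at 0.39 times it on the last.

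Unspliced reads, which cross an exon-intron boundary, could be set against split reads in 13 genes with α-amanitin, and 0 were called, against 0% of 2786 genes. At 2 μg/mL 2 of the 13 had an unadjusted p under 0.05 in limma. FANCI had 36 and 21 unspliced against 1388 and 1734 split reads at 2 μg/mL, and 12 and 13 against 1606 and 1802 in DMSO, which is 2.59 and 1.21 against 0.747 and 0.721 unspliced per 100 split reads. With DRB no gene of the list had enough reads on introns listed in every library, where 0% of 1943 genes were called at 10 μg/mL and 5.4% at 25 μg/mL. Over all introns, with unlisted ones read as 0, 17 genes could be tested with DRB. None was called at 10 μg/mL, against 0.0268% of 3733 genes, and FANCI alone was called at 25 μg/mL, against 3.21%. It had 0 and 0 unspliced reads listed at 25 μg/mL, against 106 and 124 in DMSO, beside 304 and 832 against 1662 and 1870 split reads (limma, adjusted p = 0.0436).

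Exon inclusion (Ψ) was taken as the inclusion reads over the inclusion reads plus 2 times the exclusion reads, a form that takes inclusion to be counted at both ends of an exon. Where reads were listed at 1 end only, Ψ is too low. Junctions with fewer than 3 reads are not listed, so an exclusion count of 0 can hide a few reads. With α-amanitin 73 exons of 14 genes were tested and 0 were called, against 0% of 10084 exons at the lower dose and 0.0298% at the higher dose; 5 had an unadjusted p under 0.05 at each dose in the quasi-binomial model with limma. With DRB 3 exons, 1 per gene, were tested, in UBE2T, MDC1 and XRCC3. None was called at 10 μg/mL, against 0.028% of 10702 exons, and 1 was called at 25 μg/mL, against 47.7%. The splice sites of the 4 exons described next show what the reads bridge. Each line gives the last 20 intron bases with the first 3 exon bases, or the last 3 exon bases with the first 6 intron bases, from GRCh37 on the strand of the gene, with the intron's end AG or start GT in capitals.
UBE2T acceptor, chr1:202304184-202304206, minus strand: tctttcttttttcttttaAGaaa
UBE2T donor, chr1:202304111-202304119, minus strand: gagGTtagt
MDC1 acceptor, chr6:30676132-30676154, minus strand: cttccttcctccccttccAGgta
MDC1 donor, chr6:30675337-30675345, minus strand: aagGTaagt
CHEK1 acceptor, chr11:125497482-125497504, plus strand: aaaactcttttcctttttAGagt
CHEK1 donor, chr11:125497723-125497731, plus strand: tagGTatgg
NABP1 acceptor, chr2:192547198-192547220, plus strand: agtcctctatttatccacAGtct
NABP1 donor, chr2:192547319-192547327, plus strand: aagGTaatt

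The UBE2T exon, chr1:202304117-202304186 on the minus strand in GRCh37, has 70 coding nucleotides, not a multiple of 3. It had 108 and 147 inclusion against 12 and 20 exclusion reads in DMSO, 65 and 91 against 14 and 20 at 10 μg/mL of DRB, and 0 and 7 against 6 and 8 at 25 μg/mL. Ψ was 0.818 and 0.786 in DMSO, compared with 0.699 and 0.695 at 10 μg/mL, then 0 and 0.304 at 25 μg/mL. The fall at 25 μg/mL passed the test (quasi-binomial model with limma, adjusted p = 0.0247). In replicate 2 at this dose all 7 inclusion reads were listed at the acceptor and 0 at the donor. In replicate 1 none was listed at either end, while both DMSO libraries had reads at both ends. Ψ at 25 μg/mL may therefore be too low, and the size of the fall is uncertain. The call was lost in each fit without 1 library, as were the calls of all other exons. It was also lost with DMSO and 25 μg/mL alone, where 42% of 9620 exons were called. In the 6 other treated libraries Ψ was 0.543 to 0.755, below both DMSO libraries in each, and those comparisons did not pass the test. All of them share the DMSO libraries.

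The MDC1 exon, chr6:30675343-30676134 on the minus strand, codes throughout its 792 nucleotides, a multiple of 3. It had 0 and 5 inclusion against 18 and 18 exclusion reads at 10 μg/mL of DRB, and 9 and 12 against 5 and 0 in DMSO. Ψ was 0.474 and 1 in DMSO, compared with 0 and 0.122 at 10 μg/mL, then 0 and 0.086 at 25 μg/mL, and neither dose overlapped DMSO. The exon was named for its large change at 10 μg/mL, so the lack of overlap follows in part from the choice. Where its flanking introns were listed, the reads were at its acceptor end only, so these values of Ψ may be too low. Neither dose passed the test (quasi-binomial model with limma, adjusted p = 0.218 and 0.0673). With α-amanitin Ψ was between 0.364 and 0.6.

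The CHEK1 exon, chr11:125497502-125497725 on the plus strand, codes throughout its 224 nucleotides. It had 46 and 80 inclusion reads and no exclusion read listed in DMSO, 34 and 71 inclusion against 4 and 9 exclusion reads at 1 μg/mL of α-amanitin, and 43 and 58 against 7 and 9 at 2 μg/mL. Ψ was 1 and 1 in DMSO, compared with 0.81 and 0.798 at 1 μg/mL, then 0.754 and 0.763 at 2 μg/mL. The groups did not overlap, but the exon was named for its large change at 2 μg/mL, so this follows in part from the choice. Neither dose passed the test (quasi-binomial model with limma, adjusted p = 0.451 and 0.139).

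The NABP1 exon, chr2:192547218-192547321 on the plus strand, has 104 nucleotides, of which 100 code in some transcript, and it was chosen after its values were seen. At 10 μg/mL of DRB it had 23 and 28 inclusion against 3 and 0 exclusion reads, and Ψ of 0.793 and 1, against 3 and 0 inclusion with 5 and 8 exclusion reads and Ψ of 0.231 and 0 in DMSO. With α-amanitin Ψ was 1 and 0.412 at 1 μg/mL on 13 and 14 inclusion reads, and 0.833 and 1 at 2 μg/mL on 40 and 34. One library at 25 μg/mL of DRB did not list the exon, so DRB at 10 μg/mL was tested with DMSO alone, and this did not pass (quasi-binomial model with limma, adjusted p = 0.114). Neither dose of α-amanitin passed (quasi-binomial model with limma, adjusted p = 0.638 and 0.167).

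**Figure D5:**
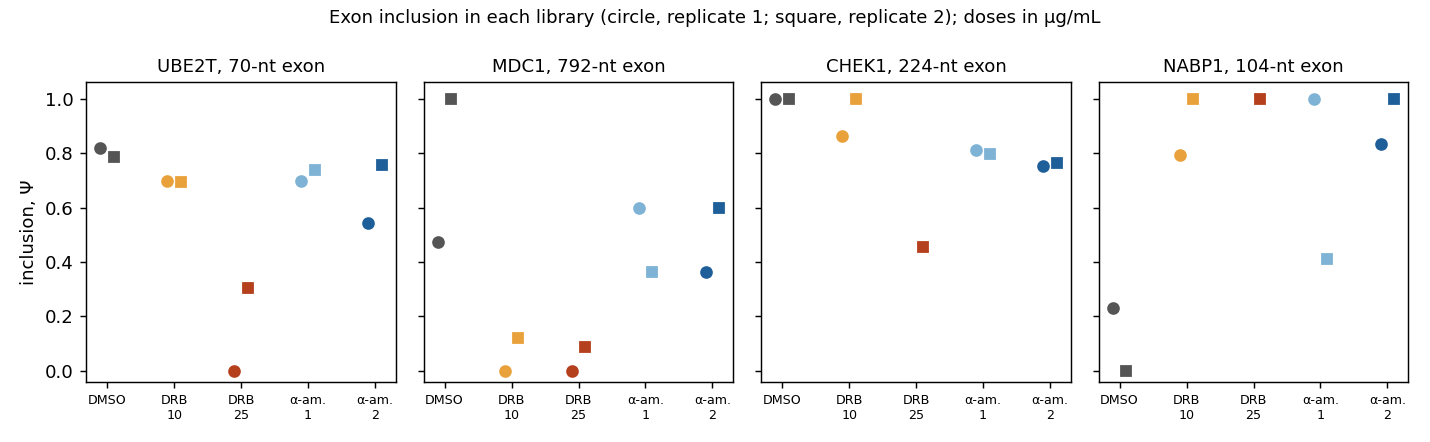
Exon inclusion Ψ (y axis) in each library (circles replicate 1, squares replicate 2) for 4 exons, for DMSO, DRB at 10 and 25 μg/mL and α-amanitin at 1 and 2 μg/mL (x axis); a missing point had a denominator under 10 or was not listed. UBE2T lies at 0 and 0.304 at 25 μg/mL of DRB, MDC1 at 0 to 0.122 with DRB, CHEK1 at 0.754 and 0.763 at 2 μg/mL of α-amanitin and NABP1 at 0.793 and 1 at 10 μg/mL of DRB.

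Of the exons with the largest change in pooled Ψ at 10 μg/mL of DRB, those of BRCA1, RBBP8 and EXO1 were not listed at 25 μg/mL and were tested with DMSO and 10 μg/mL alone. In that fit 21 exons of the genes were tested and 0 were called, against 0% of 7999 exons, and 5 had an unadjusted p under 0.05. The RBBP8 exon, chr18:20513789-20514041, lies outside the coding sequence and has no AG before it in GRCh37, as a first exon does, and its inclusion reads were all at its donor. It had 27 and 20 inclusion against 9 and 13 exclusion reads at 10 μg/mL, and 5 and 6 against 10 and 15 in DMSO (quasi-binomial model with limma, adjusted p = 0.11). The EXO1 exon, chr1:242012411-242012518, also outside the coding sequence, had Ψ of 1 and 0.889 at 10 μg/mL, against 0.574 and 0.795 in DMSO (quasi-binomial model with limma, adjusted p = 0.23). EXO1 encodes a nuclease of long-range resection. With α-amanitin the exons of BRCA1, CHEK2, FANCD2 and FANCI among the largest changes did not pass, or had no test in the fit of both doses. The FANCI exon chr15:89849241-89849425, of 185 coding nucleotides, had its inclusion reads at its donor only, with 13 and 16 inclusion against 3 and 5 exclusion reads at 2 μg/mL, and 21 and 32 against 4 and 0 in DMSO. The BRCA1 exon chr17:41249261-41249306, of 46 coding nucleotides, had Ψ of 0.59 and 0.745 at 1 μg/mL of α-amanitin, against 1 and 1 in DMSO.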

How the data were processed

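Split-read libraries of 10 A549 samples in 5 groups were analysed. The authors aligned reads of poly(A)+ RNA to GRCh37 (STAR 2.7.3a in the submitters' processing notes, another version in the paper) and ran the IPSA pipeline. The deposited files hold whole-number read counts per intron and exon as tagged text (unit class other), filtered by offset entropy, annotation and GT/AG sites; ratios in them were recomputed.

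Introns were given to GENCODE v44lift37 genes by splice site, and introns of more than 1 gene were left out. Counts were scaled by TMM and fitted with limma 3.58.1 (voom; R 4.3.3) over all genes past a filter of 10 reads in 2 libraries and 15 in total, on DMSO and both doses of a drug. Late and early introns and unspliced and split reads were compared as weighted log2 ratios, and exons by a quasi-binomial model with limma on at least 10 inclusion and 10 exclusion reads and a Ψ denominator of 10. Each step was tested on simulated data. Nothing says that replicates were separate cultures beyond the word bioreplicates, so a p reflects only how far these libraries differ, which may be technical. Replicates differed by more than sampling noise (chi-squared per degree of freedom 7.05 to 17.2). Counting intervals are not given for gene sums, since unlisted introns limit them more.

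The members and lists were chosen with earlier results of these data known. Named were genes past the adjusted p of 0.05 with a mean of 20 split reads, at most 5 per direction, comparison and readout, and always ATM, BRCA1, BRCA2, FANCD2, FANCI, CHEK1 and NABP1; for exons, those past the threshold or the 5 largest changes in pooled Ψ with denominators of 30; other genes are named from counts or alternatives.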

Additional observations from a re-analysis of the deposited data

How the results depend on the processing

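Of the counts of calls, 119 stayed within 1.5 times of the reported value under the alternatives, 12 were larger and 28 smaller. At 10 μg/mL of DRB the single call, NBN lower, became 1 in the other direction, MDC1 higher, with scaling to total split reads. It became 0 with limma on log values with a trend and 0 without the filter on low counts, 2 with median-of-ratios size factors, 2 over the 4 genes with introns listed in every library, and 11 with DMSO and 10 μg/mL alone. Of alternatives chosen after seeing the data, introns listed in all libraries of DMSO and 10 μg/mL alone gave 11 and unlisted introns at 10 reads gave 8. At 25 μg/mL the 31 calls became 2 over the 4 genes with introns listed in every library, also 2 with DMSO and 25 μg/mL alone, and 9 with unlisted introns at 10 reads, where 14 of 34 log2 fold changes lay above 0, against 2 of 39 without the limit; among them ATM, called lower without the limit, was at 0.52 (limma, adjusted p = 0.287). At 2 μg/mL of α-amanitin the 3 calls became 6 over introns listed in every library, 0 with DMSO and 2 μg/mL alone and 11 with unlisted introns at 10 reads, against 17%, 0% and 19.9% of all genes. Between the drugs the 5 calls became 8 with scaling to total split reads. The late against early test without weights called 3 genes at 25 μg/mL of DRB, and limma on log odds called 2 exons at 2 μg/mL of α-amanitin. With DMSO and 25 μg/mL alone 0 exons were called, against 42% of 9620 exons. For these the cause was not tested.

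With 1 library left out the calls were 0 to 0 at 10 μg/mL of DRB, 3 to 30 at 25 μg/mL, 4 to 31 between the DRB doses, 0 to 2 at 2 μg/mL of α-amanitin and 0 to 2 between the drugs, and 0 exons at 25 μg/mL of DRB; a lone library was assumed to vary like the other groups.

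Replicates share only a number, and deviations of same-numbered libraries from their group means correlated at 0.19 to 0.5 among DMSO, DRB at 10 μg/mL and both α-amanitin groups, highest between the α-amanitin doses, and at -0.01 to 0.06 with DRB at 25 μg/mL. With the replicate number as a block 0 genes were called at 10 μg/mL of DRB, 30 at 25 μg/mL, 12 at 2 μg/mL of α-amanitin (2 higher, 10 lower) and 8 between the drugs, against 10.4%, 55.1%, 21.8% and 24.4% of all genes, and 0 exons at 25 μg/mL of DRB, against 0%.

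Scaling to total split reads moved the median of all genes at 25 μg/mL of DRB to -1.49 on the log2 scale, against -0.99. The listing minimum of 11 reads limits every statement on genes under about 20 reads per intron.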
